A study of Mus musculus with 20 samples.

Results

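The comparison described here is between wild-type mouse embryonic stem cells (eIF2α+/+, WT) kept in medium with leukaemia inhibitory factor alone (LIF) and the same cells kept in LIF with 2 kinase inhibitors (LIF/2i). Its samples were chosen by genotype, medium and nuclease from the labels: 3 LIF and 3 LIF/2i ribosome profiling libraries made with micrococcal nuclease (MNase), 6 of the 20 samples of the series. Ribosome profiling (Ribo-Seq) sequences the short mRNA fragments that translating ribosomes protect from a nuclease, so a count per gene measures how many ribosomes sat on its coding sequence. Per the labels, both groups grew in serum-free medium with KnockOut serum replacement and 1000 U/mL LIF, with or without the MEK inhibitor PD0325901 and the GSK3 inhibitor CHIR99021, for 6 days, and cycloheximide was present when the cells were washed. The series also holds cells with an alanine knock-in at eIF2α (eIF2αA/A, KI) in both media and RNase I libraries of all 4 groups. The 6 KI MNase libraries entered the fit to estimate the spread, and the 4 WT RNase I libraries were used as a check of direction. The labels give no clone, passage or culture for any library, so p-values measure the spread between libraries as labelled, which may be technical.

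The 2 inhibitors hold mouse embryonic stem cells in the naive ground state. PD0325901 blocks the kinase MEK, which activates ERK below the FGF receptors, and CHIR99021 blocks GSK3, which otherwise marks β-catenin for destruction, so that WNT target genes are on in LIF/2i. LIF itself acts through its receptor, gp130, JAK kinases and the transcription factor STAT3. Cells in LIF alone can self-renew but vary from cell to cell, with some leaving the naive state for a formative state that precedes commitment. The comparison thus asks which footprints change when both inhibitors are absent from wild-type cells that keep their LIF.

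Total counts per WT MNase library were 2859076, 3380287 and 3912780 in LIF/2i and 2127850, 3543651 and 5461210 in LIF, with 14310 to 15391 genes detected. Spearman correlations of the 6 libraries across genes were 0.970 to 0.988 within a medium and 0.917 to 0.947 between media. The first principal component held 64.9% of the variance and separated the media. The second held 12.8% and set LIF/2i replicate 3 at 44.5 against -24.6 to 4.50 for the other 5 libraries, so LIF/2i replicate 3 stood apart from its group. Pluripotency markers of the labelled cell type were present in every library: Pou5f1, the gene of OCT4, was at 809.5, 849 and 826 CPM with the 2 inhibitors (2i) and 898, 629 and 869 CPM without, and Sox2 at 839, 871 and 958 CPM with 2i and 1029, 684 and 934 CPM without. Values in lists of 3 follow replicates 1, 2 and 3 throughout, and CPM are counts scaled by library size with TMM factors. They were not divided by gene length, so levels are compared between libraries and not between genes.

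Of 12806 genes tested, 1279 were higher in LIF (9.99%) and 1411 were lower (11.0%) at an edgeR adjusted p under 0.05, with a median log2 fold change of 0.0070 over all genes tested. Fold changes are LIF over LIF/2i on the log2 scale throughout, with their standard error (SE). A difference of 2-fold or more was seen in 818 of the genes that rose and 737 of those that fell, and 8-fold or more in 186 and 95. The 3 LIF values did not overlap the 3 LIF/2i values in 2642 of the 2690 genes called and in 42.5% of all genes tested. A lack of overlap in a called gene therefore adds little to its call. Within the called genes, LIF/2i replicate 3 was the LIF/2i library nearest to the LIF side in 1256 (46.7%), replicate 2 in 932 and replicate 1 in 502. A footprint difference combines any change of mRNA level with any change of translation, since no mRNA measurement was used here, and in bulk cultures a change in the share of cells of a type and a change per cell cannot be told apart. The count of calls fell to 1654 without LIF/2i replicate 1, 1750 without LIF replicate 2 and 1737 without LIF replicate 3, and rose to 4090 without both KI libraries of replicate 1.

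The 6 genes with the smallest p-values under the naming rule were Eras, Tfrc, Slc39a14, Itga3, Mtarc2 and Casr. Eras, which encodes a constitutively active Ras of embryonic stem cells, was at 5.67, 9.10 and 8.11 CPM with 2i and 86.2, 80.3 and 80.4 CPM without (log2 fold change 3.41, SE 0.19, edgeR adjusted p = 1.5e-06). Tfrc, the transferrin receptor that takes up iron, fell from 1579, 1355 and 1428 to 409, 435 and 443 CPM (-1.76, SE 0.11, edgeR adjusted p = 2.1e-06). Slc39a14, a zinc and iron transporter, moved the other way, from 4.25, 5.87 and 2.95 to 45.2, 48.8 and 52.2 CPM (3.50, SE 0.25, edgeR adjusted p = 3.7e-06). The rule took only genes whose groups did not overlap, so the separation of the libraries in these genes was set by the selection. Itga3, integrin α3, rose by 2.47 (SE 0.16), Mtarc2, a mitochondrial amidoxime-reducing enzyme, changed by -2.68 (SE 0.19) and Casr, the calcium-sensing receptor, by -5.11 (SE 0.34).

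Among the genes with a mean of at least 5 CPM whose groups did not overlap, the 12 with the largest rises held 4 fibrillar or fibril-associated collagens, Col1a2, Col3a1, Col12a1 and Col1a1, and the actin-binding protein gene Tagln. Col1a2 was at 0.709, 0.293 and 0.246 CPM with 2i and 39.2, 346 and 13.7 CPM without (log2 fold change 8.33, SE 1.38, edgeR adjusted p = 0.0012). Replicate 2 was the highest LIF library by a wide margin, and without it the log2 fold change was 5.95. Without the same library those of Tagln and Col1a1 were 6.45 and 4.05, from 7.59 and 5.59. Car4, a membrane carbonic anhydrase, rose from 1.06, 0.293 and 0 to 43.3, 117 and 40.1 CPM (7.34, SE 0.84, edgeR adjusted p = 1.0e-04), with fold changes from 6.63 (without LIF/2i replicate 3) to 8.73 (without LIF/2i replicate 1) on leaving out 1 library. Col3a1 had 1 count in LIF/2i and 164 in LIF, a ratio of scaled levels of 146 with a 95% counting interval of 25.8 to 5801. For Col12a1 the ratio was 47.2 (95% counting interval 15.9 to 231). The remaining large rises were Bmp4, Spry4 and Hand1, described with their groups below, and Vgf, a neuropeptide precursor (5.44, SE 0.90), Csf1, a macrophage growth factor (5.11, SE 1.08), and Wdr86 (5.00, SE 0.60). Of these 3, Csf1 was at 3.4 without LIF replicate 2, and Vgf ranged from 4.06 (without LIF replicate 2) to 7.15 (without LIF/2i replicate 1). LIF/2i replicate 3 held all LIF/2i counts of Wdr86. Fold changes moved by over 1.5-fold without 1 library for Col12a1 (6.39 without LIF/2i replicate 3).

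The largest falls by the same rule were led by enzymes and membrane proteins that were near 0 in LIF. Gpld1, a phospholipase that cleaves glycosylphosphatidylinositol anchors, had 113 counts in LIF/2i and 0 in LIF, so it was at least 42.3-fold lower against a floor of 3 counts over the group. Trpm1, a cation channel, had 179 and 3 counts, a ratio of 67.0 (95% counting interval 22.6 to 328). Casr was at 42.5, 32.0 and 33.4 CPM with 2i and 0.456, 1.08 and 1.23 CPM without, and Dmgdh, the mitochondrial dimethylglycine dehydrogenase, at 19.5, 11.4 and 9.34 CPM with 2i and 0.456, 0 and 0.528 CPM without (-5.19, SE 0.69, edgeR adjusted p = 2.7e-04). For both, the rule had required groups that did not overlap. Srarp (-5.66, SE 0.86), Ppp1r14d, an inhibitor of protein phosphatase 1 (-4.89, SE 0.96), Sash3 (-4.69, SE 0.62), the kinase gene Stk33 (-4.69, SE 0.67), Naalad2, a peptidase (-4.18, SE 0.43), Rab38, a GTPase of vesicle transport (-4.22, SE 0.93), and A2m, a protease inhibitor (-4.37, SE 1.24), also fell, and the WNT target Sp5 is described below. The call of A2m was lost in 4 of 12 leave-one-out fits (adjusted p up to 0.084, without LIF replicate 2). The size of the change depended on single libraries for Dmgdh (-6.10 without LIF replicate 3), Srarp (-4.87 without LIF/2i replicate 1), Ppp1r14d (-4.12 without LIF/2i replicate 1), Sash3 (-5.44 without LIF replicate 2) and A2m (-3.62 without LIF/2i replicate 3).

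**Figure D1:**
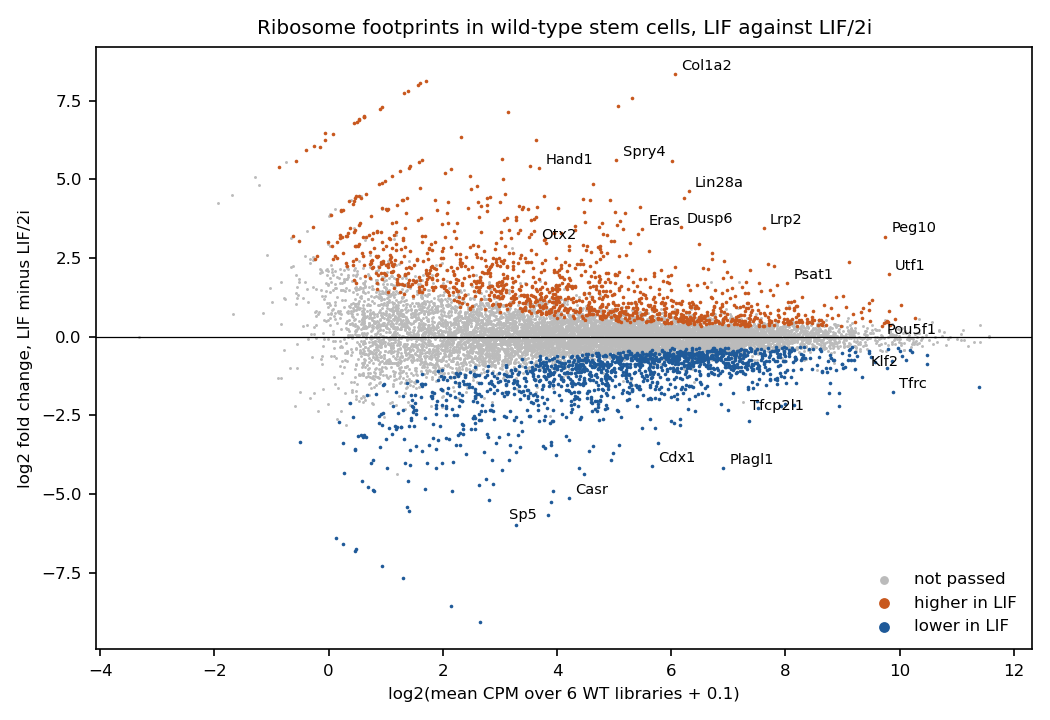
Log2 fold change of LIF over LIF/2i (vertical axis) against log2 of the mean CPM over the 6 WT libraries plus 0.1 (horizontal axis) for the 12806 genes tested, with the 1279 higher in LIF in orange, the 1411 lower in blue and the rest in grey. The straight diagonal strings of points on the left are genes with 0 or few counts in 1 medium, and calls of both directions run over the whole range of levels.

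PD0325901 blocks MEK, so the targets of MEK and ERK were read as a list. Both inhibitors were absent together in LIF, and their parts in any change cannot be told apart. Of 21 tested MEK/ERK targets, 10 rose and 2 fell, where 9.99% and 11.0% of all genes did, and their median log2 fold change was 0.71 (1.34 without LIF/2i replicate 3, 1.21 with RNase I). Spry4, Dusp4 and Dusp6, feedback inhibitors of the pathway, made the largest changes, while the related genes Spry1, Spry2 and Spred2 did not pass. Spry4, a Sprouty protein that dampens receptor tyrosine kinase signalling, was at 1.42, 2.05 and 0.492 CPM with 2i and 80.8, 54.8 and 57.1 CPM without (log2 fold change 5.62, SE 0.44, edgeR adjusted p = 1.0e-05). Dusp6, a phosphatase that inactivates ERK, was at 13.8, 10.6 and 11.3 CPM with 2i and 139, 126 and 129.9 CPM without (3.47, SE 0.28, edgeR adjusted p = 1.6e-05), and Dusp4, another such phosphatase, at 0.355, 0.587 and 2.21 CPM with 2i and 33.8, 26.0 and 18.8 CPM without (4.48, SE 0.50, edgeR adjusted p = 8.8e-05). All LIF libraries were above all LIF/2i libraries in the 3 genes, which for Spry4 was set by the naming rule. Dusp4 was highest of its group in LIF/2i replicate 3, without which its fold change was 5.68. Among transcription factors, the immediate early gene Egr1 went from 0.709, 1.47 and 1.97 to 14.1, 13.0 and 16.5 CPM (3.33, SE 0.55, edgeR adjusted p = 0.0011) and Myc from 7.80, 4.99 and 3.20 to 51.6, 67.5 and 32.5 CPM (3.28, SE 0.56, edgeR adjusted p = 0.0014), again without overlap. Phlda1 (1.51, SE 0.29), Plaur, the urokinase receptor (2.32, SE 0.56), the ETS factor gene Etv4 (1.93, SE 0.64), Dusp5 (1.44, SE 0.45) and Spred1, an inhibitor of Raf activation (0.96, SE 0.26), rose as well.

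The other 9 tested ERK targets did not pass. Spry2 was at 0.17 (SE 0.20), Etv5 at 0.46 (SE 0.16), Ccnd1, cyclin D1, at 0.41 (SE 0.29) and Fos at 0.71 (SE 0.69), none past the threshold. Spry1 (0.63, SE 0.27), Spred2 (0.33, SE 0.18), Ier2 (0.31, SE 0.15), Etv1 (-0.20, SE 0.65) and Ier3 (-0.61, SE 0.61) did not pass it either. Ier3 was at 9.22, 10.9 and 89.7 CPM with 2i and 23.7, 22.0 and 27.3 CPM without, so that LIF/2i replicate 3 alone set its sign, and without that library its fold change was 1.27 (edgeR adjusted p = 0.0038). The Eph receptor genes Epha4 and Epha2 fell, by 1.63 (SE 0.33) and 0.92 (SE 0.25). Calls were lost on leaving out 1 library for Etv4 (8 of 12 leave-one-out fits, adjusted p up to 0.14 without LIF replicate 1), Dusp5 (5 of 12 leave-one-out fits, adjusted p up to 0.125 without LIF/2i replicate 1), Epha2 (3 of 12 leave-one-out fits, adjusted p up to 0.073 without LIF replicate 2), Spred1 (4 of 12 leave-one-out fits, adjusted p up to 0.073 without LIF replicate 2) and Plaur (1 of 12 leave-one-out fits, adjusted p up to 0.051 without LIF replicate 2), and 6 of the 10 rises were called without LIF replicate 2.

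GSK3 inhibition keeps WNT targets on, and several of these targets fell in LIF. Of 15 tested WNT/β-catenin targets, 6 fell (40%, against 11.0% of all genes) and 3 rose (20%, against 9.99%), with a median of -0.53. The median was -0.22 without LIF/2i replicate 1, -0.21 with no filter on low counts and -1.36 with a stricter one. Sp5, a transcription factor induced by WNT, was at 49.6, 34.3 and 2.21 CPM with 2i and 0.456, 1.90 and 0 CPM without (log2 fold change -5.26, SE 1.11, edgeR adjusted p = 0.0052). Axin2, the feedback scaffold of β-catenin destruction, was at 57.1, 48.7 and 16.7 CPM with 2i and 8.21, 12.5 and 8.44 CPM without (-2.05, SE 0.37, edgeR adjusted p = 0.0019), and the homeobox gene Cdx1 at 138, 121 and 25.8 CPM with 2i and 9.58, 4.34 and 3.87 CPM without (-4.12, SE 0.67, edgeR adjusted p = 0.0011). Each of the 3 was higher in every LIF/2i library, which for Sp5 was set by the naming rule. LIF/2i replicate 3 was the lowest of its group in all 3. Tnfrsf19 (-2.18, SE 0.28), Notum, which inactivates WNT ligands (-2.36, SE 0.60), and Lef1, a partner of β-catenin on DNA (-1.38, SE 0.30), fell too. Sp5 ranged from -7.53 (without LIF replicate 2) to -4.42 (without LIF replicate 3) on leaving out 1 library, and Notum lost its call in 2 of 12 leave-one-out fits (adjusted p up to 0.056, without LIF replicate 2).

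The 3 WNT targets that rose were the receptor gene Fzd7 (1.09, SE 0.15), the inhibitor gene Nkd1 (1.69, SE 0.52, with its call lost in 5 of 12 leave-one-out fits, adjusted p up to 0.133 without LIF replicate 2) and Bmp4, a BMP ligand. Bmp4 had 3 counts in LIF/2i and 253 in LIF, a ratio of 75.1 (95% counting interval 25.4 to 366). Tcf7 (0.13, SE 0.19), Znrf3 (-0.56, SE 0.22), Apcdd1 (-0.53, SE 0.38), Nkd2 (0.13, SE 0.54), Dkk1 (0.24, SE 0.66) and Cd44 (0.86, SE 0.63) did not pass. The summed level of the list was 602, 549.6 and 307 CPM with 2i and 316, 298 and 307 CPM without, so that LIF/2i replicate 3 lay among the LIF libraries. Leaving out 1 library gave 5 to 8 falls, with 8 falls and a median of -0.73 without LIF/2i replicate 3. Why that library lay there was not tested. Single left-out libraries moved by over 1.5-fold the values of Bmp4 (7.26 without LIF/2i replicate 1).

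β-Catenin binds DNA through TCF/LEF factors, whose core motif was searched as ATCAAAG on both strands in RefSeq promoter windows (GRCm38.p6) from 250 bases before each gene's start up to the start. It was found in 2 of 14 WNT targets with such a window (14.3%), Sp5 and Tnfrsf19, and in 1005 of all 27025 genes with a window (3.72%). The 2 windows are shown because both genes fell; they are on the strand of the gene, from chr2:70474779-70474865 (plus strand) and chr14:61038143-61038229 (minus strand), with the motif in capitals, read on the opposite strand in Sp5 and on the gene's strand in Tnfrsf19.
Sp5: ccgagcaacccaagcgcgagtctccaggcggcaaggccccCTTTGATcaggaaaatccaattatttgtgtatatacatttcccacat
Tnfrsf19: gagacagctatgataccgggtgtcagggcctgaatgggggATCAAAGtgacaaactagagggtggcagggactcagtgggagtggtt
The motif lay 98 to 104 bases before the start of Sp5 and 196 to 202 bases before that of Tnfrsf19. A match is a description of letters, and no binding was measured.

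**Figure D2:**
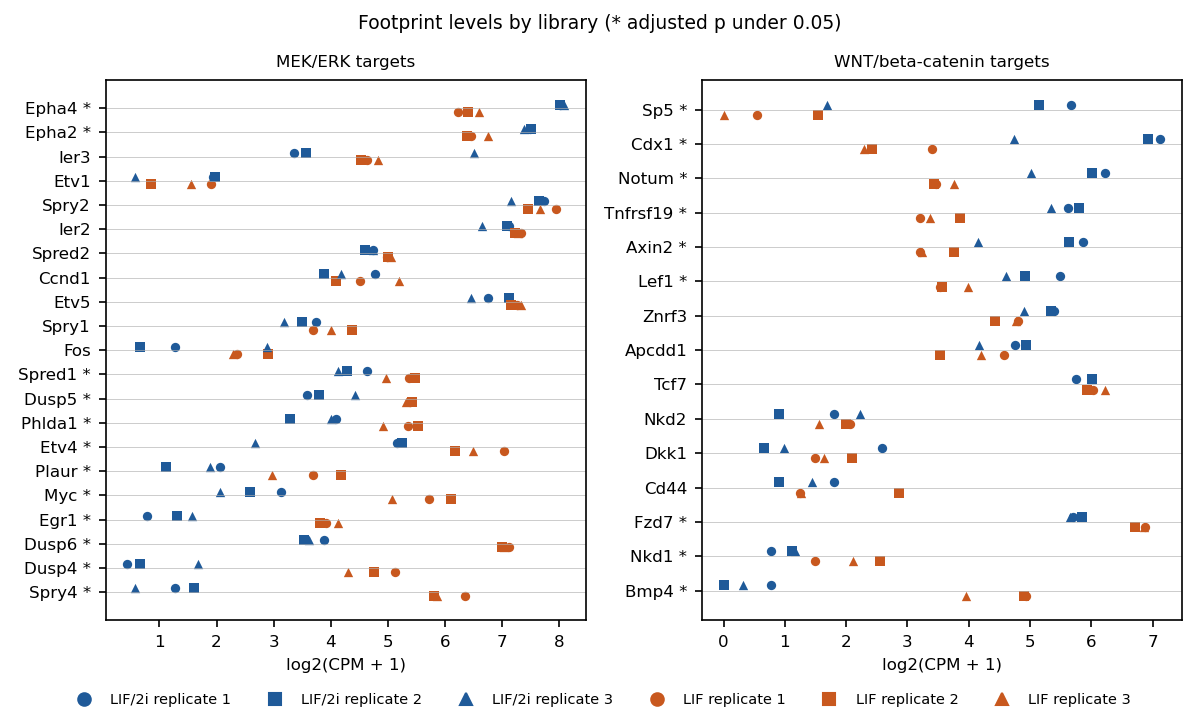
Footprint level of each tested member of the MEK/ERK list (left) and the WNT list (right) as log2(CPM + 1). Each point is 1 library, with the 3 LIF/2i libraries in blue and the 3 LIF libraries in orange. An asterisk marks an edgeR adjusted p under 0.05. Spry4, Dusp4 and Dusp6 are far higher in LIF, while Sp5, Cdx1 and Axin2 are higher in LIF/2i.

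Most naive pluripotency genes fell. Of 24 tested, 15 fell and none rose, with a median of -0.70 (RNase I -0.64), and their summed level went from 8359.9, 9110.1 and 7308 CPM in LIF/2i to 5354, 4718 and 5102 CPM in LIF. Prdm14, a repressor that limits FGF signalling in naive cells, was at 112, 100.1 and 115 CPM with 2i and 26.0, 27.4 and 30.1 CPM without (log2 fold change -1.96, SE 0.20, edgeR adjusted p = 5.4e-05). Tfcp2l1, a naive transcription factor, was at 756, 811 and 457 CPM with 2i and 200.3, 164 and 218 CPM without (-1.80, SE 0.21, edgeR adjusted p = 1.2e-04), and Klf2, a Krüppel-like factor that MEK inhibition stabilises, at 1029, 989 and 729 CPM with 2i and 446, 348 and 348 CPM without (-1.27, SE 0.15, edgeR adjusted p = 1.2e-04). The groups did not overlap in the 3 genes. The threonine dehydrogenase gene Tdh (-1.49, SE 0.29), the AKT cofactor gene Tcl1 (-1.28, SE 0.24), the nuclear receptor genes Nr0b1 (-1.20, SE 0.24) and Nr5a2 (-1.14, SE 0.25), the T-box gene Tbx3 (-1.09, SE 0.18), the surface marker gene Pecam1 (-1.05, SE 0.17) and Morc1 (-0.85, SE 0.16) fell as well.

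Nanog fell from 1256, 1431 and 1505 to 1095, 867 and 1028 CPM (log2 fold change -0.49, SE 0.15, edgeR adjusted p = 0.033). It belongs to a group of 5 naive genes, with Tet2 (-0.87, SE 0.26), Zfp42, the gene of REX1 (-0.73, SE 0.19), Klf4 (-0.60, SE 0.15) and Fbxo15 (-0.53, SE 0.16), whose calls were lost without 1 or another library. The adjusted p of Nanog was at most 0.134 without LIF replicate 2, that of Tet2 0.144 without LIF/2i replicate 2, that of Fbxo15 0.106 without LIF replicate 2, that of Zfp42 0.069 without LIF replicate 2 and that of Klf4 0.069 without LIF replicate 2. Esrrb, an orphan receptor of the naive network, was at 672, 755 and 572 CPM with 2i and 648, 511 and 583 CPM without and did not pass (-0.20, SE 0.14, edgeR adjusted p = 0.355), with overlapping groups. Klf5 (-0.12, SE 0.19), Dppa3 (-0.22, SE 0.50), Dppa5a (-0.39, SE 0.16), Fgf4 (-0.66, SE 0.31), Manba (-0.37, SE 0.35), Stat3 (-0.091, SE 0.11), Zscan10 (0.17, SE 0.22) and Gbx2 (0.17, SE 0.47) did not pass either.

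Among the core factors shared by naive and primed cells, the LIN28 genes and Utf1 changed most. Pou5f1 was at -0.053 (SE 0.14), Sox2 at -0.012 (SE 0.14) and Sall4 at 0.010 (SE 0.11), none past the threshold. Of 15 tested members of the core list 5 rose (33.3%, against 9.99% of all genes) and 1 fell (6.7%, against 11.0%). Their median was 0.33, and 3 rises were called without LIF replicate 3. Lin28a, an RNA-binding protein that blocks maturation of let-7 microRNAs, was at 6.38, 6.46 and 5.66 CPM with 2i and 124, 182 and 149.6 CPM without (log2 fold change 4.63, SE 0.39, edgeR adjusted p = 1.6e-05). Its paralogue Lin28b was at 2.13, 1.47 and 0.492 CPM with 2i and 8.67, 16.0 and 5.45 CPM without (2.93, SE 0.52, edgeR adjusted p = 0.0019), and the chromatin factor gene Utf1 at 348, 409 and 327 CPM with 2i and 1654, 1229 and 1418 CPM without (1.99, SE 0.17, edgeR adjusted p = 2.1e-05). Every LIF library exceeded every LIF/2i library in the 3 genes. Dppa2 (0.81, SE 0.21) and Zfp281 (0.48, SE 0.12) rose and Zfp296 (-0.97, SE 0.16) fell. The calls of Dppa2 and Zfp281 were lost in 2 of 12 leave-one-out fits (adjusted p up to 0.089, without LIF replicate 3), and in 2 of 12 leave-one-out fits (adjusted p up to 0.063, without LIF replicate 1), and the RNase I value of Dppa2 was -0.16.

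Formative and primed genes split. Of 23 tested, 8 rose (34.8%, against 9.99% of all genes) and 5 fell (21.7%, against 11.0%). Their median was 1.00 (RNase I 1.21, and 0.33 without LIF replicate 2). Otx2, the homeobox factor of the exit from naive pluripotency, was at 2.13, 4.70 and 8.11 CPM with 2i and 37.0, 37.4 and 41.5 CPM without (log2 fold change 2.90, SE 0.48, edgeR adjusted p = 0.0011). Pou3f1, or OCT6, was at 5.32, 1.76 and 5.90 CPM with 2i and 15.1, 22.8 and 20.6 CPM without (2.17, SE 0.34, edgeR adjusted p = 7.9e-04). The de novo DNA methyltransferase gene Dnmt3a went from 76.2, 61.0 and 124 to 312, 219.7 and 319 CPM (1.70, SE 0.28, edgeR adjusted p = 0.0011). The groups did not overlap in these genes. Dnmt3b (1.15, SE 0.22), Sox4 (1.93, SE 0.23), the epithelial factor gene Grhl2 (1.71, SE 0.37), Etv4 (1.93, SE 0.64) and the receptor gene Fzd2 (2.17, SE 0.54) also rose, the last with its call lost in 2 of 12 leave-one-out fits (adjusted p up to 0.075, without LIF replicate 2). Values shifted by over 1.5-fold in leave-one-out fits for Fzd2 (1.42 without LIF replicate 2).

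The 5 members of the formative list that fell were Lefty2, Nodal, Lef1, Sox3 and Zic2. Lefty2, an inhibitor of Nodal, was at 68.4, 35.5 and 27.5 CPM with 2i and 2.74, 3.25 and 4.04 CPM without (-3.64, SE 0.53, edgeR adjusted p = 5.5e-04), and Nodal, a TGF-β family ligand that acts in primed cells, at 165, 147 and 169.9 CPM with 2i and 71.2, 78.9 and 76.7 CPM without (-1.09, SE 0.15, edgeR adjusted p = 2.9e-04). Both were lower in each LIF library. Sox3 was at -1.25 (SE 0.29) and Zic2 at -0.66 (SE 0.19), the last with its call lost in 3 of 12 leave-one-out fits (adjusted p up to 0.12, without LIF/2i replicate 1). Cdh2, N-cadherin (1.73, SE 0.84), Fgf15 (2.09, SE 0.97), Car14 (2.13, SE 0.92), Sall2 (1.00, SE 0.39), Pim2 (0.90, SE 0.35), Foxd3 (-0.54, SE 0.25), Zic5 (-0.38, SE 0.21), Lefty1 (-0.29, SE 0.43), Tead2 (-0.17, SE 0.16) and Sox11 (0.39, SE 0.21) did not pass.

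**Figure D3:**
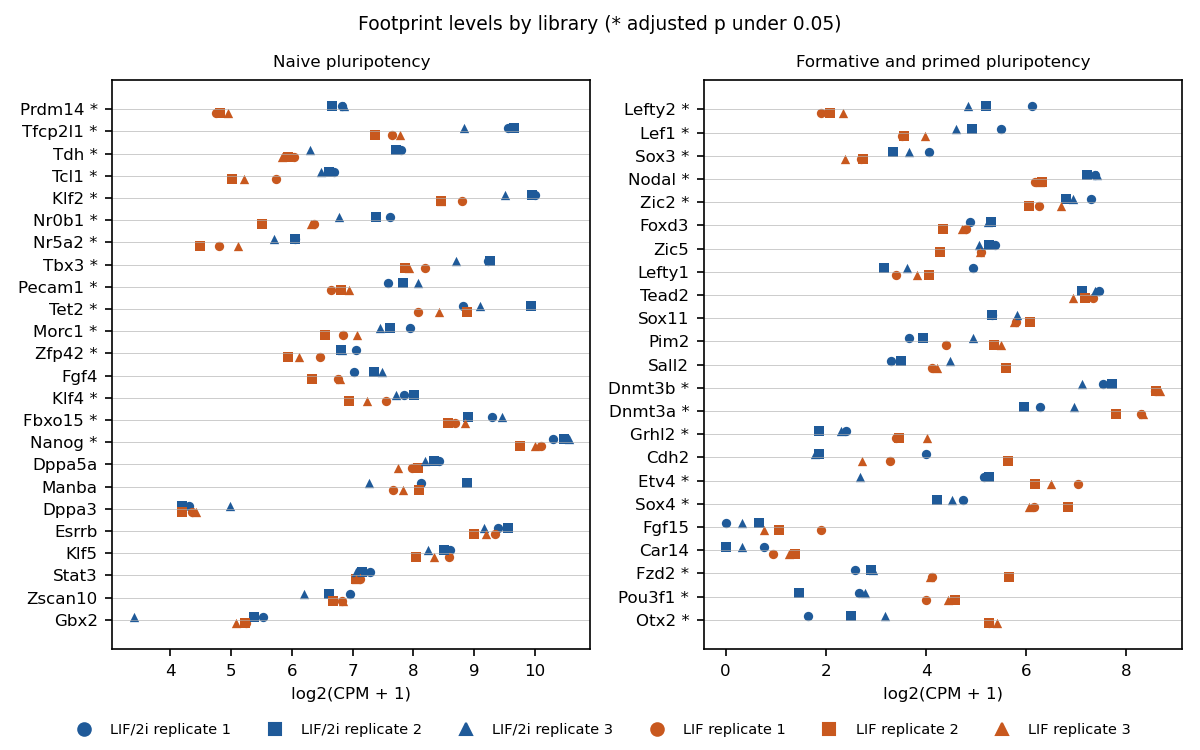
Footprint level of each tested naive gene (left) and formative or primed gene (right) as log2(CPM + 1), 1 point per library, with LIF/2i in blue, LIF in orange and replicates by symbol, and an asterisk for an edgeR adjusted p under 0.05. In the naive panel every called gene lies lower in LIF, while in the other panel 8 lie higher and 5 lower.

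LIF was present in both media, and most genes of its pathway did not pass. Of 15 tested genes of the LIF/STAT3 pathway 1 rose (6.7%, against 9.99% of all genes) and none fell, with a median of -0.091. The gene that rose was the AP-1 gene Junb (1.15, SE 0.34, edgeR adjusted p = 0.029). Its call was lost in 4 of 12 leave-one-out fits (edgeR adjusted p up to 0.10 without LIF replicate 2). The receptor genes Lifr and Il6st were at 0.091 (SE 0.21) and -0.080 (SE 0.19), the kinase genes Jak1, Jak2 and Tyk2 at -0.20 (SE 0.19), -0.20 (SE 0.32) and -0.25 (SE 0.18), and Stat3 at -0.091 (SE 0.11). Socs3, the feedback inhibitor that STAT3 induces, was at 86.5, 86.9 and 114 CPM with 2i and 125, 87.9 and 119 CPM without (0.21, SE 0.20, edgeR adjusted p = 0.515), with overlapping groups. Lif (-0.22, SE 0.42), Cish (0.67, SE 0.58), Pim1 (-0.33, SE 0.17), Pim3 (0.093, SE 0.22), Bcl3 (-0.41, SE 0.27), Ptpn11 (0.20, SE 0.12) and Ptpn6 (-0.71, SE 0.33) did not pass.

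Other growth factor pathways changed at single members. In the FGF list 3 of 12 tested rose (25%, against 9.99% of all genes) and 1 fell (8.3%, against 11.0%). The receptor gene Fgfr2 rose from 2.48, 2.35 and 10.1 to 54.3, 66.5 and 62.1 CPM (3.55, SE 0.58, edgeR adjusted p = 0.0011), with LIF/2i replicate 3 nearest to LIF and a fold change of 4.64 without it. Fgfr1 rose by 0.47 (SE 0.11) and the ligand gene Fgf17 by 3.23 (SE 0.78), and the decoy receptor gene Fgfrl1 was at -2.31 (SE 0.35). The call of Fgf17 was lost in 1 of 12 leave-one-out fits (adjusted p up to 0.077, without LIF replicate 3). In the TGF-β, Nodal and BMP list 3 of 17 rose, Bmp4, its target Id1 (2.34, SE 0.53, and 1.54 without LIF replicate 2) and Smad6, an inhibitory Smad (1.37, SE 0.44, call lost in 8 of 12 leave-one-out fits, adjusted p up to 0.136 without LIF/2i replicate 2), and 2 fell, Lefty2 and Nodal. In the TGF-β, Nodal and BMP list the rises made 17.65% and the falls 11.76%, the latter near the 11.0% of all genes. A single library moved by over 1.5-fold the value of Fgf17 (2.47 without LIF replicate 3).

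Most targets of the integrated stress response (ISR) rose. In this response phosphorylation of eIF2α lowers general initiation and raises translation of the transcription factor ATF4, which induces genes of amino acid synthesis, uptake and tRNA charging. Of 40 tested ISR targets 29 rose and 1 fell, with a median of 0.97 (RNase I 0.85), and leaving out 1 library gave 23 to 30 rises. Their summed level was 6489, 6816 and 6862 CPM with 2i and 10201, 9119 and 12036 CPM without, which is 0.680% and 1.08% of all counts on average.

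Of the transcription factors of the response, Atf4 was at 127, 118 and 115 CPM with 2i and 267, 189 and 277 CPM without (log2 fold change 1.03, SE 0.19, edgeR adjusted p = 0.0022), and Atf5, a related factor, at 5.67, 9.68 and 5.66 CPM with 2i and 31.9, 31.2 and 42.0 CPM without (2.33, SE 0.34, edgeR adjusted p = 5.6e-04). Their groups did not overlap. Cebpb (2.32, SE 0.40) and Atf3 (2.17, SE 0.56) rose, and Ddit3, or CHOP, was at 3.19, 4.40 and 6.64 CPM with 2i and 13.7, 8.41 and 8.26 CPM without and did not pass (1.04, SE 0.39, edgeR adjusted p = 0.077). The call of Atf3 was lost in 2 of 12 leave-one-out fits (adjusted p up to 0.065, without LIF replicate 2). Among downstream effectors, Trib3, a pseudokinase, was at 6.38, 14.1 and 10.8 CPM with 2i and 70.3, 45.6 and 74.6 CPM without (2.59, SE 0.31, edgeR adjusted p = 1.4e-04), and Chac1, which degrades glutathione, at 2.13, 3.52 and 3.20 CPM with 2i and 17.8, 14.6 and 28.0 CPM without (2.76, SE 0.46, edgeR adjusted p = 0.0013). Nupr1, a stress-induced chromatin protein, was at 6.03, 8.22 and 7.62 CPM with 2i and 43.8, 37.7 and 59.6 CPM without (2.68, SE 0.43, edgeR adjusted p = 9.6e-04). Each of the 3 was higher in every LIF library.

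Genes of serine and glycine synthesis, one-carbon metabolism and proline synthesis rose. Psat1, the phosphoserine aminotransferase, was at 108, 132 and 127 CPM with 2i and 397, 329 and 479 CPM without (1.71, SE 0.14, edgeR adjusted p = 1.6e-05). Psph (1.25, SE 0.27), Phgdh (1.60, SE 0.39), the mitochondrial folate enzyme genes Mthfd2 (1.58, SE 0.24) and Shmt2 (0.92, SE 0.20), and the proline synthesis genes Pycr1 (1.06, SE 0.23) and Aldh18a1 (1.22, SE 0.27) rose, and the call of Phgdh was lost in 1 of 12 leave-one-out fits (adjusted p up to 0.053, without LIF replicate 3). Of the amino acid transporters, Slc7a5 (0.99, SE 0.13) with its partner Slc3a2 (0.91, SE 0.12), the arginine and lysine transporter Slc7a3 (1.46, SE 0.27) and Slc38a2 (0.96, SE 0.25) rose, and Slc7a1 (-0.41, SE 0.25) did not pass. Slc38a2 lost its call in 3 of 12 leave-one-out fits (adjusted p up to 0.077, without LIF/2i replicate 1).

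Genes of aminoacyl-tRNA synthetases, which charge tRNAs, rose too. Sars was at 228, 324 and 284 CPM with 2i and 648, 644 and 712 CPM without (1.26, SE 0.13, edgeR adjusted p = 5.4e-05), and Nars at 467, 465 and 431 CPM with 2i and 974, 809 and 1109 CPM without (1.09, SE 0.12, edgeR adjusted p = 7.5e-05), without overlap. Cars (0.97, SE 0.13), Gars (0.93, SE 0.27), Aars (0.80, SE 0.12), Yars (0.77, SE 0.12), Wars (0.69, SE 0.22) and Iars (0.53, SE 0.10) rose, and Gars lost its call in 5 of 12 leave-one-out fits (adjusted p up to 0.101, without LIF replicate 3). The ISR target that fell was Asns, the asparagine synthetase gene, at 1216, 1356 and 1231 CPM with 2i and 848, 658 and 1012 CPM without (-0.59, SE 0.19, edgeR adjusted p = 0.043), and its call was lost in 6 of 12 leave-one-out fits (adjusted p up to 0.173, without LIF replicate 2). Gdf15 (-0.88, SE 0.31), Cth (-0.76, SE 0.39), Ppp1r15a, or GADD34 (-0.47, SE 0.37), Sesn2 (0.0056, SE 0.44) and Ddit4 (0.10, SE 0.51) did not pass. Calls were also lost without 1 library for Wars (adjusted p up to 0.131 without LIF replicate 3).

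ATF4 binds composite sites with C/EBP factors, which were searched as TGATGNAA on both strands in the same promoter windows. The letters were found in 11 of 36 ISR targets with a window (30.6%) and in 1056 of all 27025 genes with a window (3.91%). Among the 36, they were in 8 of 24 genes that rose, in the 1 gene that fell, in 0 of 8 that did not pass and in 2 of 3 that were not tested. Windows are shown for 3 genes that rose, Chac1, Nupr1 and Aars, and for Asns, since the same letters stood before genes of both directions. They run 5′ to 3′ on the strand of the gene, with the motif in capitals, read on the opposite strand except in Asns, from chr2:119351009-119351096 (plus), chr7:126625533-126625620 (minus), chr8:111033690-111033777 (plus) and chr6:7693210-7693272 (minus), RefSeq GRCm38.p6.
Chac1: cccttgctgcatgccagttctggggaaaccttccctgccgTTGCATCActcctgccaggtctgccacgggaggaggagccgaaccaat
Nupr1: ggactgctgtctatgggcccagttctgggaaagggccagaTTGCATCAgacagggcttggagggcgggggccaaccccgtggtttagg
Aars: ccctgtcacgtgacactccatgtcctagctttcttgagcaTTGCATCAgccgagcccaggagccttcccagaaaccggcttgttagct
Asns: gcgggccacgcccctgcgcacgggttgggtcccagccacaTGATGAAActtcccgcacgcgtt
The motif ended 186 bases before the start of Chac1, 103 before Nupr1, 105 before Aars and 16 before Asns. These are matches of letters, and no binding was measured.

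Few genes changed in the neighbouring stress and translation lists. In the unfolded protein response list, chaperones and folding enzymes of the endoplasmic reticulum, none of 23 rose and 1 fell (4.3%, against 11.0% of all genes). It was Hyou1 (-0.38, SE 0.12), with its call lost in 8 of 12 leave-one-out fits (edgeR adjusted p up to 0.14, without LIF replicate 1). Hspa5, or BiP, was at 0.086 (SE 0.13). Of 14 genes of eIF2, its exchange factor eIF2B and the eIF2α kinases and phosphatases, 1 fell (7.1%, against 11.0% of all genes), and 3 fell without KI LIF replicate 1. The gene that fell was Eif2b5, the catalytic subunit of eIF2B, from 652, 579 and 508 to 289, 236 and 271 CPM (-1.13, SE 0.14, edgeR adjusted p = 1.8e-04), with no overlap. Eif2s1, which encodes eIF2α, was at 111, 102 and 89.0 CPM with 2i and 105, 117 and 101 CPM without (0.096, SE 0.13, edgeR adjusted p = 0.655). Of 77 cytosolic ribosomal protein genes 10 rose, a share of 13.0% against 9.99% of all genes, none fell and the median was 0.13. The largest of these rises was 1.01 (Rpl7a), 7 of the 10 had the same sign in the RNase I libraries, where Rpl28 was at -0.18 and Rpl7a at -0.16, and 5 were called without LIF replicate 3. Ribosomal protein genes have many near-identical pseudogene copies, and the treatment of reads that fit several copies is not stated in the labels. Of 21 other mRNAs with a terminal oligopyrimidine tract 2 rose (9.5%, near the 9.99% of all genes), Eef1d (0.49, SE 0.12) and Eif3h (0.41, SE 0.12). The calls of both were lost on leaving out 1 library, with edgeR adjusted p of up to 0.059 without LIF replicate 3 and 0.153 without LIF replicate 3. Some fits that left out 1 library lost the call of Rpl7a (adjusted p up to 0.128 without LIF replicate 3).

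Several glycolysis genes fell. Of 21 tested genes 7 fell and none rose, with a median of -0.59. Pgk1, phosphoglycerate kinase, was at 76.9, 39.3 and 96.9 CPM with 2i and 24.2, 25.5 and 35.5 CPM without (log2 fold change -1.31, SE 0.29, edgeR adjusted p = 0.0071), and Hk1, a hexokinase, at 290.0, 303 and 330.0 CPM with 2i and 177, 159.8 and 149.8 CPM without (-0.93, SE 0.21, edgeR adjusted p = 0.0069). The groups did not overlap in either. The glucose transporter gene Slc2a3 (-0.59, SE 0.11), the lactate transporter genes Slc16a3 (-1.89, SE 0.62) and Slc16a1 (-0.53, SE 0.16), the aldolase gene Aldoc (-1.59, SE 0.47) and the phosphofructokinase gene Pfkl (-1.11, SE 0.36) fell, and the last 4 lost their calls on leaving out 1 library, with adjusted p of up to 0.32 without LIF/2i replicate 3, 0.121 without LIF replicate 1, 0.207 without LIF/2i replicate 3 and 0.272 without LIF/2i replicate 3. Summed over the list, LIF/2i was at 5391, 4403 and 7125 CPM and LIF at 3644, 3928 and 3889 CPM, so LIF/2i replicate 3 was the highest. Without that library 3 genes fell, and without LIF/2i replicate 2 there were 13; scaling by library totals gave 4 and the RNase I libraries 1. Fold changes moved by over 1.5-fold without 1 library for Slc16a3 (-0.80 without LIF/2i replicate 3), Aldoc (-0.56 without LIF/2i replicate 3) and Pfkl (-0.42 without LIF/2i replicate 3).

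In the lists of cholesterol synthesis and oxidative phosphorylation few members passed. Of 25 cholesterol genes 3 rose (12%, near the 9.99% of all genes), among them Mvd (0.69, SE 0.15) and Mvk (0.56, SE 0.16), and 2 fell (8% against 11.0%), the sterol isomerase gene Ebp (-1.61, SE 0.32, edgeR adjusted p = 0.0035) and Insig1 (-0.71, SE 0.24). The synthesis gene Sqle (0.19, SE 0.15) did not pass. Of 53 nuclear subunits of oxidative phosphorylation 4 rose (7.5%), Cox5b (0.71, SE 0.20), Uqcrq (0.70, SE 0.18), Ndufa1 (0.57, SE 0.19) and Cox4i1 (0.44, SE 0.12), and none was called without LIF/2i replicate 1. Among 13 mitochondrially encoded subunits 2 fell (15.4%), mt-Nd6 (-0.85, SE 0.17) and mt-Co3 (-0.68, SE 0.23), and the summed level overlapped between media. Leaving out 1 library gave 1 (without LIF/2i replicate 1) to 4 (without KI LIF replicate 1) rises and 1 (without LIF/2i replicate 1) to 3 (without LIF/2i replicate 2) falls of cholesterol genes, and 1 mitochondrially encoded fall without LIF/2i replicate 1. Leaving out single libraries ended the calls of Mvk (adjusted p up to 0.085 without LIF/2i replicate 1), Insig1 (adjusted p up to 0.177 without LIF replicate 2), Cox5b (adjusted p up to 0.118 without LIF replicate 3), Uqcrq (adjusted p up to 0.07 without LIF/2i replicate 1), Ndufa1 (adjusted p up to 0.186 without LIF replicate 3), Cox4i1 (adjusted p up to 0.087 without LIF replicate 1) and mt-Co3 (adjusted p up to 0.163 without LIF replicate 1).

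Several lysosomal hydrolase genes fell. Of 34 lysosome and autophagy genes 9 fell (26.5%, against 11.0% of all genes) and 2 rose (5.9%, against 9.99%), with a median of -0.13. Hexa, the gene of a lysosomal glycosidase, went from 167, 218 and 152 to 87.1, 106 and 86.9 CPM (log2 fold change -0.94, SE 0.20, edgeR adjusted p = 0.0055). Ctsa, which protects other lysosomal enzymes, went from 344, 411 and 376 to 171, 209.7 and 165 CPM (-1.05, SE 0.14, edgeR adjusted p = 3.3e-04). Both were lower in every LIF library. Glb1, β-galactosidase (-0.82, SE 0.18), the cathepsin genes Ctsl (-0.74, SE 0.17) and Ctsb (-0.68, SE 0.16), the cholesterol carrier gene Npc2 (-0.63, SE 0.17), Lamp2 (-0.76, SE 0.20) and Wipi1 (-0.79, SE 0.24) fell, and Tfe3, a transcription factor of lysosomal genes (0.63, SE 0.15), and Map1lc3a (0.74, SE 0.16) rose. Leaving out 1 library gave 6 to 11 falls. Without 1 library the threshold was missed by Npc2 (adjusted p up to 0.087 without LIF/2i replicate 1), Lamp2 (adjusted p up to 0.062 without LIF replicate 3) and Wipi1 (adjusted p up to 0.089 without LIF replicate 3).

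Few cell cycle genes changed. Of 26 S phase genes 1 rose, cyclin E1, Ccne1, from 202, 182 and 150.5 to 365, 334 and 315 CPM (0.92, SE 0.16, edgeR adjusted p = 0.0017), and 2 fell, Mcm3 (-0.57, SE 0.13) and Cdc45 (-0.45, SE 0.14). The S phase shares were 3.8% for rises and 7.7% for falls, against 9.99% and 11.0% of all genes. Of 24 genes of G2 and M phase 1 rose (4.2%), Cdc25c (0.57, SE 0.18). The p53 list held 2 falls in 20 tested, a share of 10% against 11.0% of all genes. Cdkn1a, the gene of the cell cycle inhibitor p21, went from 272, 378 and 224 to 47.9, 109 and 57.0 CPM (-2.02, SE 0.30, edgeR adjusted p = 6.0e-04), and Pmaip1, the gene of the BH3 protein NOXA, from 166, 86.6 and 181 to 47.5, 37.2 and 42.7 CPM (-1.77, SE 0.42, edgeR adjusted p = 0.0097). Both were lower in every LIF library, whereas Mdm2 (-0.22, SE 0.27) and Bax (-0.17, SE 0.16) did not pass. Without KI LIF replicate 1 there were 4 S phase falls, and without KI LIF/2i replicate 1 there were 3 rises of G2 and M phase genes and 4 falls of p53 targets. Single left-out libraries ended the calls of Cdc45 (adjusted p up to 0.13 without LIF replicate 1) and Cdc25c (adjusted p up to 0.134 without LIF replicate 1).

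In the DNA methylation list the de novo enzymes rose and the maintenance enzyme did not pass. Of 14 tested, 3 rose, Dnmt3a, Dnmt3b and their cofactor Dnmt3l, and 2 fell, Tet2 and Usp7 (-0.48, SE 0.10). The shares were 21.4% and 14.3%, against 9.99% and 11.0% of all genes. Dnmt3l was at 86.9, 51.1 and 401 CPM with 2i and 856, 844 and 1091 CPM without (2.36, SE 0.59, edgeR adjusted p = 0.013). LIF/2i replicate 3 was well above its group, the fold change was 3.75 without it, and without LIF/2i replicate 1 the adjusted p was 0.0608. Dnmt1, the maintenance methyltransferase, was at -0.19 (SE 0.10) and its partner Uhrf1 at -0.076 (SE 0.14). Leaving out 1 library gave 2 (without LIF/2i replicate 1) to 5 (without LIF/2i replicate 3) rises and, without LIF/2i replicate 2, 1 fall.

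Germline genes that DNA methylation represses moved in both directions. Of 18 tested, 4 rose (22.2%, against 9.99% of all genes) and 3 fell (16.7%, against 11.0%). Dazl, an RNA-binding protein of germ cells, fell from 821, 767 and 699.5 to 174, 185 and 295 CPM (-1.80, SE 0.32, edgeR adjusted p = 0.0017), and Hormad1 and Tex101 were at -1.21 (SE 0.28) and -1.42 (SE 0.36). Mael, of the piRNA pathway, rose from 1.77, 3.52 and 3.69 to 37.4, 22.0 and 31.5 CPM (3.28, SE 0.47, edgeR adjusted p = 4.6e-04), and the helicase gene Ddx4, or VASA, from 8.86, 8.22 and 18.7 to 46.1, 36.3 and 41.8 CPM (1.77, SE 0.30, edgeR adjusted p = 0.0014). The groups did not overlap in these 3 genes. Tdrd1 (2.55, SE 0.67) and Mov10l1 (1.46, SE 0.35) rose, and 2 to 9 members were higher when 1 library was left out. Calls were also lost without 1 library for Tex101 (adjusted p up to 0.059 without LIF replicate 2), Tdrd1 (adjusted p up to 0.055 without LIF/2i replicate 3) and Mov10l1 (adjusted p up to 0.057 without LIF replicate 3). The size of the change depended on single libraries for Tdrd1 (3.51 without LIF/2i replicate 2).

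Several imprinted genes rose. Of 18 tested 9 rose and 1 fell, with a median of 1.27. Peg10, a retrotransposon-derived gene needed for the placenta, went from 306, 81.3 and 126 to 1245, 2231 and 1154 CPM (log2 fold change 3.18, SE 0.47, edgeR adjusted p = 5.9e-04), and Mest from 23.4, 27.6 and 34.4 to 128, 277 and 136 CPM (2.66, SE 0.28, edgeR adjusted p = 6.9e-05). Snrpn went from 11.0, 11.4 and 16.2 to 53.8, 41.2 and 44.3 CPM (1.83, SE 0.21, edgeR adjusted p = 9.4e-05). Every LIF library was above every LIF/2i library in the 3 genes, and Peg10 was at 3.88 without LIF/2i replicate 1. Dlk1 (2.25, SE 0.36), Peg3 (1.29, SE 0.23), Cdkn1c, the gene of the cyclin-dependent kinase inhibitor p57 (2.89, SE 0.56), Phlda2 (2.89, SE 0.56) and Nnat (4.28, SE 0.79) rose, and the growth factor gene Igf2 had 1 count in LIF/2i and 53 in LIF, a ratio of 47.2 (95% counting interval 8.11 to 1898). Plagl1, a zinc finger transcription factor, moved against the rest, from 285, 237 and 161 to 9.13, 16.3 and 11.8 CPM (-4.17, SE 0.32, edgeR adjusted p = 8.3e-06). Igf2r (0.010, SE 0.22), Grb10 (-0.86, SE 0.30) and Sgce (1.25, SE 0.48) did not pass, and 2 members fell without LIF/2i replicate 3. Single left-out libraries moved by over 1.5-fold the values of Cdkn1c (3.68 without LIF/2i replicate 3), Phlda2 (3.62 without LIF/2i replicate 3) and Nnat (5.46 without LIF/2i replicate 3).

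Among 29 tested genes of the actin cytoskeleton and targets of SRF and YAP 13 rose and 1 fell, with a median of 0.62. The tropomyosin gene Tpm1 went from 36.2, 27.6 and 51.4 to 149.7, 336 and 129 CPM (log2 fold change 2.41, SE 0.38, edgeR adjusted p = 9.1e-04), and the focal adhesion gene Zyx from 20.2, 19.7 and 21.6 to 63.9, 102 and 52.8 CPM (1.83, SE 0.29, edgeR adjusted p = 9.6e-04), without overlap. Acta2, smooth muscle actin, went from 3.55, 4.40 and 6.15 to 33.8, 195 and 20.2 CPM (4.11, SE 0.73, edgeR adjusted p = 0.0018), highest in LIF replicate 2. Ankrd1, a YAP target, had 0 counts in LIF/2i and was at least 9.20-fold higher in LIF. Tpm2 (1.93, SE 0.36), Cnn2 (1.52, SE 0.36), Tagln2 (0.98, SE 0.21), S100a6 (2.72, SE 0.39) and Anxa3 (3.26, SE 0.50) rose, Ahnak (-1.19, SE 0.28) fell, and Actb, cytoplasmic β-actin, rose by 0.33 (SE 0.11) with its call lost in 9 of 12 leave-one-out fits (adjusted p up to 0.143, without LIF/2i replicate 2). Without LIF replicate 2 there were 2 falls. Values shifted by over 1.5-fold in leave-one-out fits for Acta2 (2.46 without LIF replicate 2).

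Several of these genes are also markers of cells other than stem cells, so the marker lists of other lineages were read in the same libraries. Of 13 tested markers of fibroblasts and feeder cells 9 rose, none fell and the median was 1.98. It ran from 1.51 (without LIF replicate 2) to 3.42 (without LIF replicate 3) on leaving out 1 library, and was 4.13 with a stricter filter and 4.32 with libraries thinned to the smallest. Their summed level was 657, 459.5 and 205 CPM with 2i and 519, 1542 and 375 CPM without, so the sums overlapped and LIF replicate 2 stood highest. Vim, an intermediate filament gene, made up most of this sum in each LIF/2i library. It was at 617, 426 and 163 CPM with 2i and 259, 429.9 and 231 CPM without and did not pass (-0.39, SE 0.66, edgeR adjusted p = 0.725). Col6a1, by contrast, had 1 count against 63, a ratio of 56.1 (95% counting interval 9.71 to 2249.8). Twist1 (1.98, SE 0.63), Fbn1 (1.46, SE 0.43) and Col5a1 (1.35, SE 0.39) rose. Of the 18 members 11 were higher in every LIF library than in any LIF/2i library. At 0 were 1 member in all 6 libraries and 3 members in all of LIF/2i. The part of such cells in the collagen and actin results was not tested. Some fits that left out 1 library lost the call of Twist1 (adjusted p up to 0.165 without LIF replicate 2), Fbn1 (adjusted p up to 0.102 without LIF/2i replicate 1) and Col5a1 (adjusted p up to 0.155 without LIF replicate 2). A single library moved by over 1.5-fold the value of Col5a1 (0.66 without LIF replicate 2).

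Many trophoblast markers rose. Of 14 tested 10 rose and none fell, with a median of 3.43. Summed, they were at 282, 340.4 and 338 CPM with 2i and 912, 922 and 691 CPM without, 0.0324% and 0.0873% of all counts on average. The keratin genes Krt8 and Krt18, of simple epithelia, went from 5.67, 4.70 and 2.21 to 33.8, 99.3 and 18.6 CPM (log2 fold change 3.63, SE 0.64, edgeR adjusted p = 0.0018) and from 6.03, 3.81 and 4.92 to 51.6, 108 and 30.2 CPM (3.69, SE 0.58, edgeR adjusted p = 8.1e-04). Rhox9, a reproductive homeobox gene on the X chromosome, went from 2.48, 3.52 and 1.97 to 39.2, 48.8 and 36.4 CPM (3.96, SE 0.40, edgeR adjusted p = 5.4e-05). None of these overlapped, and Krt18 was at 3.04 without LIF replicate 2. Rhox6 (3.92, SE 0.44), Krt7 (3.31, SE 0.59), Hand1 (5.37, SE 0.58) and Fgfr2 rose, and Plac1, with 0 counts in LIF/2i, was at least 17.2-fold higher. Fold changes moved by over 1.5-fold without 1 library for Krt8 (2.65 without LIF replicate 2) and Hand1 (6.15 without LIF/2i replicate 3).

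The transcription factors that define early trophoblast gave no common direction. Cdx2 was below the filter on low counts, at 1.42, 0.880 and 0 CPM with 2i and 0.913, 2.44 and 1.93 CPM without, and so was Elf5, at 0, 0 and 0.246 CPM with 2i and 1.37, 1.08 and 1.23 CPM without. Eomes (-0.15, SE 0.36), Tead4 (-0.55, SE 0.25), Ascl2 (-0.42, SE 0.35) and Gata2 (1.37, SE 0.52) did not pass. Gata3 (1.75, SE 0.57) and Tfap2c (0.98, SE 0.31) rose, with calls lost in 8 of 12 leave-one-out fits (adjusted p up to 0.142, without LIF/2i replicate 1), and in 6 of 12 leave-one-out fits (adjusted p up to 0.146, without LIF replicate 1), and Gata3 was at 3.20 without LIF/2i replicate 3.

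Among markers of primitive and extraembryonic endoderm, endocytic receptor and laminin genes rose, while Gata4, Gata6 and Sox17 did not pass. Of 15 tested 8 rose and none fell, with a median of 1.74. Lrp2, or megalin, went from 29.4, 28.2 and 40.3 to 270.1, 448 and 364 CPM (log2 fold change 3.46, SE 0.32, edgeR adjusted p = 4.1e-05), its partner Cubn, or cubilin, from 0, 0 and 5.90 to 43.3, 60.8 and 32.2 CPM (4.35, SE 0.83, edgeR adjusted p = 0.0028), and the laminin gene Lamb1 from 78.7, 56.3 and 83.8 to 215, 267 and 247 CPM (1.74, SE 0.17, edgeR adjusted p = 4.8e-05). Their groups did not overlap, and LIF/2i replicate 3 held all Cubn counts of its group. Without it Cubn was fitted at 10.98, a value that rests on the prior count because the group is then at 0. Lama1 (1.65, SE 0.21), the adaptor gene Dab2 (2.10, SE 0.47), Amn (2.22, SE 0.52), Sox7 (2.34, SE 0.61) and Pdgfra (1.72, SE 0.45) rose. Gata6 (0.84, SE 0.29), Gata4 (0.55, SE 0.53), Sox17 (0.61, SE 0.42) and Sparc (0.53, SE 0.18) did not pass. The collagen IV genes Col4a1 and Col4a2 (1.74, SE 0.67, edgeR adjusted p = 0.083, and 1.74, SE 0.67, edgeR adjusted p = 0.081) did not pass with all libraries and were at 3.84 and 3.82 without LIF/2i replicate 3 (edgeR adjusted p = 1.1e-04 and 1.4e-04). The list summed to 657, 432 and 815 CPM with 2i and 1552, 2067 and 1582 CPM without. The part of other lineages in any result was not tested. Leaving out single libraries ended the calls of Sox7 (adjusted p up to 0.061 without LIF/2i replicate 2) and Pdgfra (adjusted p up to 0.072 without LIF replicate 2). The size of the change depended on single libraries for Dab2 (2.77 without LIF/2i replicate 3) and Amn (3.41 without LIF/2i replicate 3).

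Mesoderm, neuroectoderm and 2-cell markers were low. Of 2 mesoderm markers tested 1 fell, Gsc (-2.58, SE 0.42, edgeR adjusted p = 0.0011), and the list summed to 26.4 to 32.6 CPM with 2i and 15.8 to 23.7 CPM without. Of 6 neuroectoderm markers 2 rose, Map2 (1.60, SE 0.41) and Pax6, with 3 counts in LIF/2i and 34 in LIF, a ratio of 10.1 (95% counting interval 3.17 to 51.3), and the list summed to 79.8 to 122 CPM and 114 to 159 CPM. No marker of the 2-cell-like state reached the filter, and their sum stayed at or under 3.44 CPM in every library. Of 17 cadherin, claudin and tight junction genes 4 rose and 2 fell: E-cadherin, Cdh1, went from 1016, 1125 and 1359.7 to 566, 558 and 633 CPM (-0.99, SE 0.16, edgeR adjusted p = 0.0011) and occludin, Ocln, was at -1.49 (SE 0.25), while the rises included Cldn6 (2.84, SE 0.51), Cldn4 (0.94, SE 0.28) and Cdh5, with 1 count in LIF/2i and 20 in LIF (a ratio of 17.8, 95% counting interval 2.85 to 738). The rises made 23.5% of this list and the falls 11.8%, against 9.99% and 11.0% of all genes. Rises numbered 1 (without LIF/2i replicate 2) to 5 (without LIF/2i replicate 3) in this list and 1 (without LIF/2i replicate 3) to 3 (without KI LIF replicate 1) among the neuroectoderm markers. Of 5 tested targets of the aryl hydrocarbon receptor 1 rose, Tiparp (0.71, SE 0.23, edgeR adjusted p = 0.041), with its call lost in 8 of 12 leave-one-out fits (adjusted p up to 0.137, without LIF/2i replicate 2). Without 1 library the threshold was missed by Map2 (adjusted p up to 0.059 without LIF/2i replicate 3), Cldn4 (adjusted p up to 0.098 without LIF/2i replicate 2) and Cdh5 (adjusted p up to 0.105 without LIF/2i replicate 1). Single left-out libraries moved by over 1.5-fold the values of Pax6 (4.00 without LIF/2i replicate 3) and Cldn6 (3.47 without LIF/2i replicate 3).

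**Figure D4:**
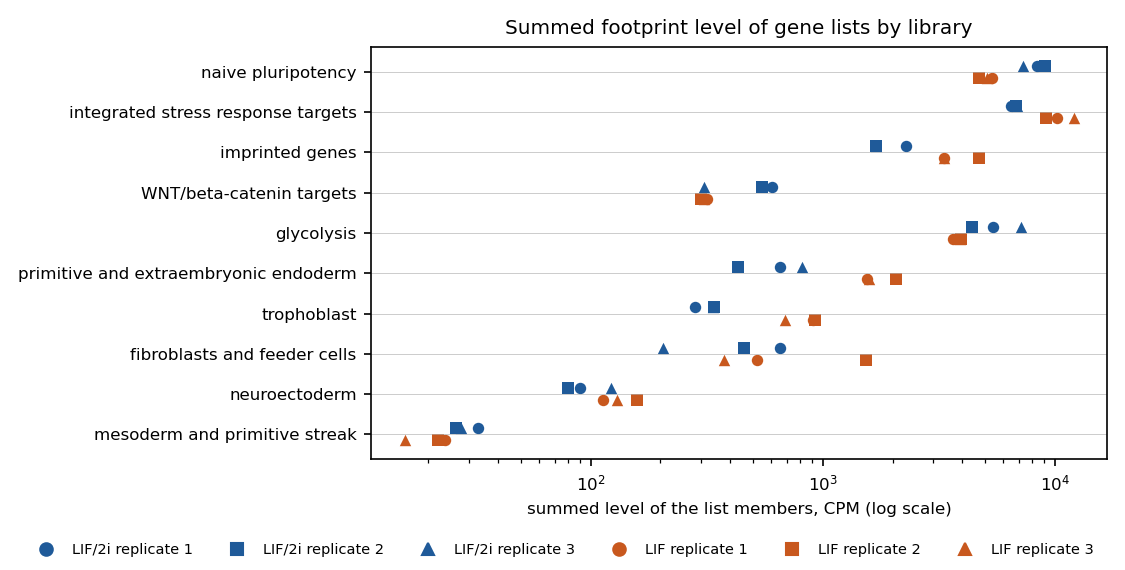
Summed footprint level in CPM of each list shown in the 3 LIF/2i libraries (blue) and 3 LIF libraries (orange), 1 point per library on a log axis. Naive genes are lower in every LIF library and ISR targets, trophoblast markers and endoderm markers higher. The sum of the fibroblast markers, most of it Vim in LIF/2i, overlaps between media.

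**Figure D5:**
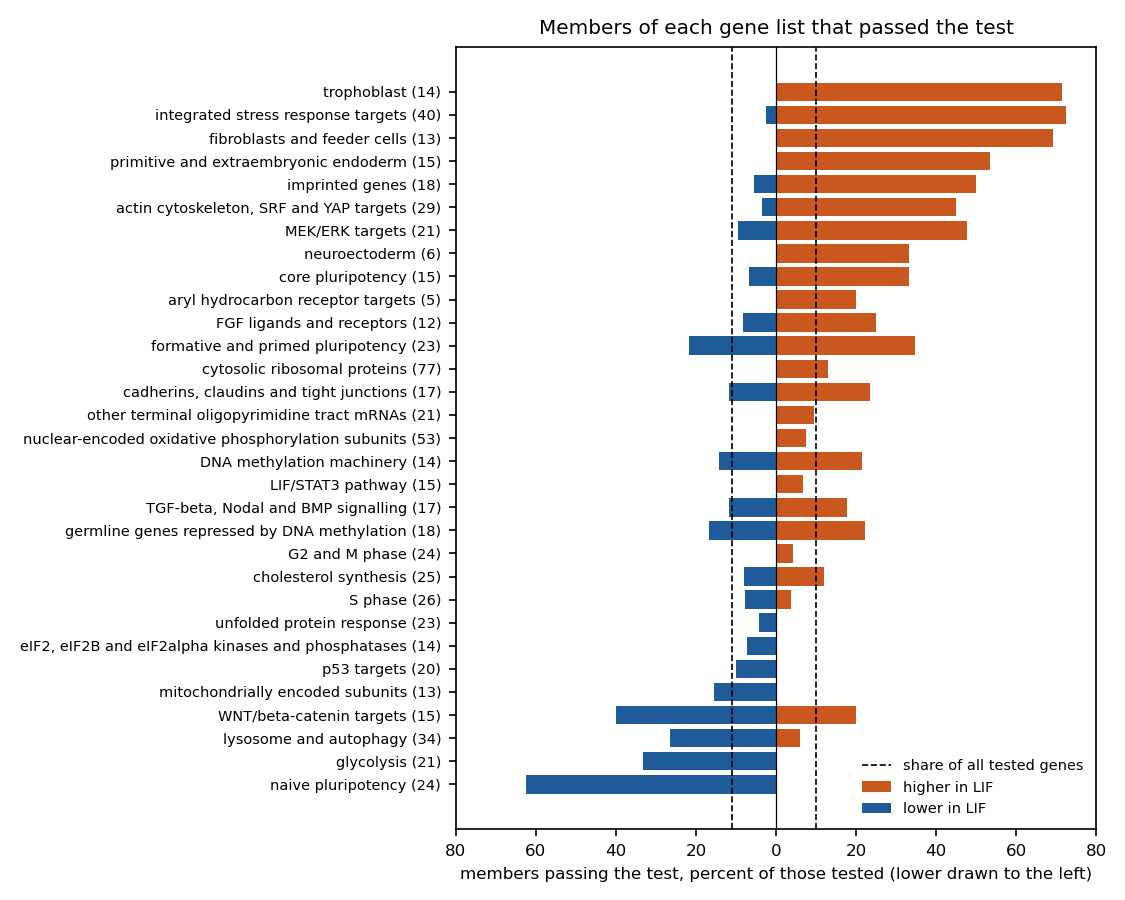
Share of each list's tested members that was higher (orange) or lower (blue) in LIF at an edgeR adjusted p under 0.05, with the shares of all 12806 genes tested as dashed lines. ISR targets and markers of trophoblast and fibroblasts have the largest shares of rises and naive genes the largest share of falls.

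The 4 WT RNase I libraries, 2 per medium, give a check of direction with another nuclease, although libraries of the same number may come from the same lysates. In them 1649 of 12095 genes passed (13.6%). Of the 2690 genes called with MNase 2587 were tested with RNase I, 2567 of these had the same sign (99.2%), 1344 were called in the same direction and 0 in the opposite one, and of the 9459 uncalled genes 7389 had the same sign (78.1%). Spry4 was at 1.40 and 2.66 CPM with 2i and 72.5 and 64.9 CPM without, both with RNase I (log2 fold change 5.17). Klf2 went from 591 and 641 to 342 and 269 CPM (-1.01) and Psat1 from 117 and 129.5 to 396 and 299 CPM. The direction of each was the one seen with MNase.

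Whether the response to the medium differed in the KI cells was tested as an interaction. It passed for 43 genes (0.336%), of which 27 were also called in WT, with a KI change of the opposite sign in 19 of those 27, of the same sign and smaller in 7, and of the same sign and larger in 1, Asns (-2.43 against -0.59 in WT). Of the 2690 genes called in WT 2476 had the same sign in KI (92.0%). For Spry4 the KI log2 fold change was 1.88 against 5.62 in WT (edgeR adjusted p = 0.012 for the difference), for Lin28a 1.17 against 4.63 (edgeR adjusted p = 0.0095) and for Psat1 0.27 against 1.71 (edgeR adjusted p = 0.0086). Of the 19 with opposite signs, 12 also passed the test of the medium in KI. Lef1 was at 1.27 in KI against -1.38 in WT (edgeR adjusted p = 0.014 for the difference), Sox3 at 1.26 against -1.25 (edgeR adjusted p = 0.014), mt-Co3 at 1.98 against -0.68 (edgeR adjusted p = 0.0085) and Actb at -0.66 against 0.33 (edgeR adjusted p = 0.013). The count of genes passing the interaction ran from 10 to 148 when 1 library was left out.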

How the data were processed

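Footprints were counted per coding sequence by the authors, and the deposited table holds raw counts, not normalized, for 22416 gene names in 20 libraries. Tools named in the submitters' processing notes are Bowtie 1.3.0, UMI-tools 1.0.1 and cutadapt 3.4. The genome build was not given in the sources used here. Names were matched to RefSeq symbols (21755 matched directly, 94 more through older symbols, 13 mitochondrial names respelled, 554 kept as in the file).

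The 12 MNase libraries were fitted together with edgeR 4.0.16 in R 4.3.3 (quasi-likelihood test, 4 group means, filterByExpr, TMM factors, 8 residual degrees of freedom), and the contrast was WT LIF minus WT LIF/2i. P-values were two-sided and Benjamini-Hochberg adjusted over 12806 genes, with a threshold of 0.05. CPM used TMM-scaled library sizes. SE is the fold change divided by the square root of F. The 8 RNase I libraries were fitted separately in the same way. Total counts of the 6 WT MNase libraries ran from 2127850 to 5461210, and depth limits the precision of genes with few counts. Intervals cover counting error only, and a group at 0 was set to a floor of 3 counts.

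The members and the 33 gene lists (746 of 748 members found in the file) were chosen with earlier results of these data known. The naming rule took called genes whose groups did not overlap and whose mean was 5 CPM or more, and from them the 12 that rose most, the 12 that fell most and the 6 of smallest p, with predicted genes left unnamed. It added up to 4 members of each list in each direction by smallest p, all members of the naive, formative, MEK/ERK, WNT and LIF/STAT3 lists, and Eif2s1. Genes named beyond this rule were chosen after their values were seen. Lists are described by counts and medians, with no set test. Correlations of same-numbered WT libraries' deviations from their group means were 0.015, 0.078 and 0.035, against -0.063 to 0.039 for libraries of different numbers. The labels state no pairing, and the numbers were not taken as pairs in the main fit. The code was tested on simulated data. DESeq2 1.42.0, other scalings, filters, a replicate block, thinning and leaving out each library were tried as alternatives. Some genes of the lists are not reported here by name.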

Additional observations from a re-analysis of the deposited data

Results flagged for a closer look

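These genes had a response to the medium that differed between genotypes by the edgeR interaction test (adjusted p under 0.05), and the difference, KI minus WT on the log2 scale, is given for each. Among ISR targets it was -1.84 for Asns, -1.45 for Psat1, -1.19 for Cars, -1.09 for Nars, -1.04 for Aars and -1.0 for Yars. Among genes of pluripotency, signalling and growth it was -3.75 for Spry4, -3.46 for Lin28a, -1.93 for Eras, 2.65 for Lef1 and 2.50 for Sox3. It was -3.09 for the trophoblast marker Rhox9, -0.997 for Actb, -1.53 for the ribosomal protein gene Rpl37a and 2.66 for the mitochondrial gene mt-Co3. The number of genes passing this test depended on single libraries, and its range is given with the processing.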

How the results depend on the processing

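For the contrast WT LIF minus LIF/2i, genes called numbered 2690, and the count stayed within 1.5 times under RLE factors (2695), library totals (2671), no low-count filter (2588), a stricter filter (2273), the 6 WT libraries alone (2881), thinning to 2127850 counts (2193), DESeq2 (3022) and the replicate block (3677). Whether the replicate numbers pair the samples is not known from the labels. It was 4090, with 1997 higher, without KI replicate 1 in both media, and 1649, with 782 lower, in the RNase I libraries. With library totals the larger side turned, to 1406 higher and 1265 lower, with all genes shifted by 0.0435. Leaving out 1 library gave 1654 to 3172 genes, 728 to 1528 higher and 924 to 1644 lower. The interaction gave 43 genes, 218 with the replicate block, 216 with DESeq2 and 10 to 148 on leaving out 1 library. MEK/ERK targets that rose numbered 6 to 10 on leaving out 1 library. Glycolysis genes that fell numbered 7, with 4 under library totals, 11 without KI replicate 1, 1 with RNase I and 3 to 13 on leaving out 1 library. Ier3 ran from -1.05 to 1.27 on leaving out 1 library, and Dppa2, Rpl28 and Rpl7a turned to -0.16, -0.18 and -0.16 with RNase I. The cause was not tested. Of 305 genes followed singly through the alternatives 219 were called, and 153 of these kept their call in all 12 leave-one-out fits. Genes with few counts in 1 medium have wide intervals, and the shallowest library held 2127850 counts.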
